A study of Mus musculus with 54 samples.

Results

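The retinoic acid response of the parental line was described from 6 of the 54 samples of a series on mouse embryonic stem cells. The 6 samples were chosen by their labels alone, and all genes of the deposited count table were considered. The parental line carries both Ezh2 alleles, which its column names write as flfl, and it received no added EZH2. EZH2 is the histone H3 methyltransferase within Polycomb repressive complex 2 (PRC2), which keeps developmental genes silent. The series as a whole, 18 groups of 3 samples, asks how EZH2 variants found in Weaver syndrome act in such cells. Here 3 parental libraries were undifferentiated (mESC), and 3 came from parental cells that were briefly differentiated. Differentiation joined 2 changes, the withdrawal of 2i and LIF and the addition of all-trans retinoic acid (ATRA). The effects of the withdrawal and of ATRA cannot be told apart here, and the word ATRA below stands for both. Neither dose nor duration is given in the sources used here. 2 further lines serve as points of comparison. The het line derives from the parental line, with 1 Ezh2 allele deleted (Ezh2 fl/∆), and the WT line is the het line with added EZH2-WT. Each has 3 mESC and 3 ATRA libraries. The labels do not say whether replicates were separate cultures or whether each line is 1 clone. The p-values therefore cover the spread among replicate libraries alone, which may be technical. That spread was estimated over all 48 libraries of the fit, those of EZH2 variant lines included.

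LIF is a cytokine that acts through STAT3, and 2i is a pair of inhibitors that block the ERK kinase cascade and the kinase GSK3, which raises WNT signalling. Together they hold embryonic stem cells in the naive state, the counterpart of the preimplantation epiblast. Retinoic acid is made from vitamin A by retinol and retinaldehyde dehydrogenases, is broken down by CYP26 enzymes, and binds the receptors RARα, RARβ and RARγ. With a retinoid X receptor, these bind paired hexamers in DNA and switch from repressing to activating nearby genes. Among the known targets are Cyp26a1 and Rarb, which form feedback loops, and the Hox genes, which set position along the body axis.

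Gene promoters were searched for the classic receptor element, 2 hexamers in the same direction with 5 bases between them. Each hexamer could be AGGTCA, the consensus, or AGTTCA as found in many targets, and also GGTTCA with a changed first base or GGGTCA with the same change. Both strands were searched, in windows from 250 bases before to 50 after the start of transcription (RefSeq, GRCm38.p6). Such a repeat was in a promoter of 31 of 27025 genes (0.115%), and in 11 of the 11950 tested genes that had a promoter sequence (0.0921%). It was in 6 of the 1173 genes that were higher beyond 2-fold after ATRA (0.512%), and in 2 of the 544 that were lower beyond 2-fold (0.368%), which were Cfap45 and Prss27. The promoters of Cyp26a1 and Rarb are shown because both hold the repeat and both genes rose. The Cyp26a1 window is chr19:37697558-37697857 on the plus strand, with the repeat at positions -32 to -16 on the opposite strand. The Rarb window is chr14:16575427-16575726 on the minus strand, with the repeat at positions -53 to -37 on the same strand. Both read 5′ to 3′ along the gene, and capitals mark the repeat.
Cyp26a1: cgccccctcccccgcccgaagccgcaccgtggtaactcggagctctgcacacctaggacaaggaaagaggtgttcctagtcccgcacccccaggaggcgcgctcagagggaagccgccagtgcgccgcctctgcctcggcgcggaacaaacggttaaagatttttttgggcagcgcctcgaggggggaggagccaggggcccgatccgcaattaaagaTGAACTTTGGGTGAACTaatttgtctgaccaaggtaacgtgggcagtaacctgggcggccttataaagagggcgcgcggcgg
Rarb: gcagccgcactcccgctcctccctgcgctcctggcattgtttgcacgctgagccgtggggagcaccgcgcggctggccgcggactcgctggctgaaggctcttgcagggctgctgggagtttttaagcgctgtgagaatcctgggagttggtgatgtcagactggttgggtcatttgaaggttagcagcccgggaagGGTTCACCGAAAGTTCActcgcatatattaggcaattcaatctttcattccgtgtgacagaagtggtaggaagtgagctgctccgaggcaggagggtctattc
The stretches of 2 more of the 6 genes follow, with the flanks of their repeats, since these genes belong to none of the lists below. Ppbp, a platelet chemokine, has its repeat in chr5:90768268-90768308 on the opposite strand, and Prokr2, a receptor for prokineticins, in chr2:132385555-132385611 on the same strand.
Ppbp: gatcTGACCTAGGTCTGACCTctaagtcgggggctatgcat
Prokr2: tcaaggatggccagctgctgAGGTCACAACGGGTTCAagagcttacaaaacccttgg
A match of letters describes the window only, and no binding was measured.

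Of 17683 genes tested, 9755 (55.2%) changed with ATRA. By edgeR's quasi-likelihood test, at a Benjamini-Hochberg adjusted p under 0.05, 5064 genes (28.6%) were higher and 4691 (26.5%) lower. Changes shown to lie beyond 2-fold were fewer and mostly upward, with 2466 genes in all (13.9%), of which 1694 were higher (9.58%) and 772 lower (4.37%). Rises outnumbered falls among genes low in mESC and not among those at higher levels, as given below by level. The median log2 fold change over all tested genes was 0.0025. Lists share some members, and the shares of 28.6% higher and 26.5% lower stand beside each list count below. A gene near 0 in mESC passes the filter on low counts only through libraries in which it is high. Counts over lists that hold such genes describe them and are not support for their direction. Levels below are in CPM, counts per 1000000 after TMM scaling of library sizes. A mean is followed by its standard deviation over 3 libraries, and a log2 fold change by its standard error (SE). Ezh2 itself was at 301, 302 and 302 CPM in mESC and at 274, 284 and 279 CPM after ATRA. Its change missed the threshold, at -0.11 (SE 0.060, adjusted p = 0.105). Library totals ran from 15361598 to 21712766 counts in mESC and from 18636735 to 27483091 after ATRA. Counts of replicate libraries differed by more than sampling noise in every pair (chi-square per degree of freedom 5.51 to 9.46). Genes at 1 CPM or more numbered 13177 to 13369 in mESC and 13845 to 14074 after ATRA. A gene's deviation in a library from its mean over the 48 libraries of the fit was also set against its GC content. The rank correlation was above 0 in all 6 parental libraries. It was strongest in replicate 1 of each state (0.31 in mESC and 0.26 after ATRA, against 0.11 to 0.16 in the others).

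The label of embryonic stem cell was checked against markers. The 8 pluripotency markers were all detected and summed to 3643 to 4146 CPM in mESC, then to 1116 to 1249 CPM after ATRA. Markers of other cell types were low before treatment, apart from neural ones. The 6 neural markers summed to 175 to 209 CPM in mESC, where Tubb3 alone had a mean of 166 CPM, and to 134 to 165 CPM after ATRA. The 6 endoderm markers summed to 4.95 to 6.45 CPM in mESC and to 81.8 to 96.8 CPM after ATRA, none of them at 0 in either state. The 8 markers of fibroblasts, which often serve as feeder cells, summed to 7.91 to 9.77 CPM in mESC and 11.4 to 12.8 CPM after ATRA. Of these, Col3a1 and Lum were at 0 in all 6 libraries, and Postn and Dcn were also at 0 in mESC. In bulk RNA, a change in the share of cells of a type and a change of RNA per cell cannot be told apart, which holds for every level below.

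The largest rises among retinoid genes were those of genes that break down or take up retinoids. Of 25 listed genes of retinoid metabolism and transport, 16 were tested, 10 were higher, 9 of them beyond 2-fold, and 1 was lower. Their median log2 fold change was 2.05. Cyp26a1, the main enzyme that clears retinoic acid in the embryo, was at 0.0482, 0.06598 and 0.111 CPM in mESC and at 368, 349.9 and 367 CPM after ATRA. It went from the edge of detection in every mESC library to a high level in every ATRA library, with log2 fold change 12.13, SE 0.21, adjusted p = 1.19e-39. Its relatives Cyp26b1 (0.312 ± 0.0414 to 32.7 ± 4.25 CPM, log2 fold change 6.67) and Cyp26c1 (0.119 ± 0.0752 to 6.198 ± 0.793 CPM, 5.71) also rose. Stra6, the cell surface receptor that takes up retinol from its carrier protein, was at 0.386, 0.198 and 0.667 CPM in mESC and 71.1, 63.5 and 65.3 CPM after ATRA. The groups lay far apart, and the log2 fold change was 7.27 (SE 0.23, adjusted p = 1.08e-28). Dhrs3, a reductase that turns retinaldehyde back into retinol, rose from 1.699 ± 0.264 to 60.3 ± 2.23 CPM (log2 fold change 5.13, SE 0.15, adjusted p = 2.59e-31).

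The intracellular carriers were not all called. Crabp2, which delivers retinoic acid to its receptors, rose from 1.99 ± 0.165 to 8.55 ± 1.97 CPM (log2 fold change 2.11, adjusted p = 2.83e-13). Crabp1, a second retinoic acid carrier, was at 8.03 ± 1.23 and 7.14 ± 1.23 CPM and was not called (adjusted p = 0.441), nor was Fabp5 (14.9 ± 1.69 and 13.8 ± 1.703 CPM, adjusted p = 0.366). The retinaldehyde dehydrogenases Aldh1a2 and Aldh1a3, which make retinoic acid, were not called. Aldh1a2 was at 3.91, 4.02 and 3.11 CPM in mESC and 3.38, 3.02 and 3.16 CPM after ATRA, so that its groups overlapped, and the log2 fold change of -0.20 was not called (adjusted p = 0.377). Aldh1a3 was near 1 CPM in both states (1.03 ± 0.0972 and 0.686 ± 0.209 CPM, adjusted p = 0.221). Rdh10, which oxidises retinol, was at 5.201 ± 1.11 and 6.69 ± 0.326 CPM (log2 fold change 0.35, adjusted p = 0.0243), a call lost without mESC replicates 2 or 3 or ATRA replicate 1 (each left out alone, adjusted p = 0.106 to 0.195). Adh5, a widely expressed alcohol dehydrogenase, was the 1 member that fell (239.9 ± 14.5 to 188 ± 13.8 CPM, log2 fold change -0.35). The 9 members below the filter on low counts, among them Aldh1a1, Lrat, Adh1 and Adh7, had at most 7 counts over the 3 libraries of a state.

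The receptors rose by unequal amounts. Of 18 listed receptors and coregulators, 17 were tested, 11 were higher (7 beyond 2-fold) and none lower, with a median of 0.51. Rarb was at 0.193, 0.3299 and 0.222 CPM in mESC and 2.71, 3.37 and 4.59 CPM after ATRA, with no overlap and a log2 fold change of 3.83 (SE 0.32, adjusted p = 2.82e-14). Rarg, the receptor that was already well expressed, was at 71.1, 68.8 and 70.8 CPM and then 254, 221 and 206 CPM. Every ATRA library was higher, and the log2 fold change was 1.69 (SE 0.12, adjusted p = 8.79e-16). Rara rose from 80.9 ± 7.52 to 115 ± 9.799 CPM, a log2 fold change of 0.51 (adjusted p = 1.70e-06). Per kilobase of exon, the level after ATRA was 53.3 CPM for Rarg, 26.4 CPM for Rara and 0.675 CPM for Rarb. Of the partners, Rxra (19.1 ± 2.09 to 32.5 ± 2.304 CPM) and Rxrb (58.8 ± 3.55 to 83.6 ± 8.36 CPM) rose by 0.77 and 0.51 on the log2 scale. Rxrg had 2 counts in mESC and 87 after ATRA, a ratio of 34.2-fold (95% interval 9.18 to 287).

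Nrip1, a corepressor that binds retinoid receptors when ligand is present, was at 17.9, 20.98 and 22.7 CPM in mESC and 173, 189 and 181 CPM after ATRA. The ATRA libraries were all far above the others, with a log2 fold change of 3.14 (SE 0.090, adjusted p = 2.71e-31). Most general corepressors and coactivators were not called, among them Ncor1 (-0.068), Ncoa1 (-0.029) and Ncoa3 (0.053), with log2 fold changes in brackets and adjusted p of 0.389, 0.812 and 0.412. Ncoa2 rose by 0.28 on the log2 scale. Among orphan receptors that bind similar elements, Nr2f1 (0.165 ± 0.146 to 1.35 ± 0.295 CPM) and Nr2f2 (0.203 ± 0.113 to 2.14 ± 0.348 CPM) rose from low levels. Nr6a1, the germ cell nuclear factor that represses Pou5f1 during differentiation, rose from 63.2 ± 1.75 to 139 ± 3.82 CPM (log2 fold change 1.14, adjusted p = 6.28e-21).

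Of 25 retinoic acid target genes, all tested, 21 were higher, 20 of them beyond 2-fold, and 3 were lower, with a median of 3.34. Stra8, named for its stimulation by retinoic acid and needed for meiosis, was at 4.05, 3.83 and 4.45 CPM in mESC and 152, 152 and 157 CPM after ATRA. The 3 ATRA libraries differed little from each other, and the log2 fold change was 5.22 (SE 0.10, adjusted p = 4.92e-38). Zfp703, a zinc finger repressor, was at 1.35, 1.25 and 1.61 CPM and then 167, 149.6 and 137 CPM, so that every treated library was far above every untreated library (log2 fold change 6.74, SE 0.14, adjusted p = 7.83e-37). Foxa1, a pioneer factor of endoderm, rose from 0.254 ± 0.129 to 7.47 ± 0.259 CPM. Smaller rises were those of Tshz1 (1.35), Gbx2 (1.31), Tgm2 (1.597) and Skap2 (0.74). Ret, a receptor tyrosine kinase, was not called (1.99 ± 0.565 and 2.88 ± 0.467 CPM, adjusted p = 0.0897, and 0.0473 with the replicate number as a block). Those that fell were Cdx1 (log2 fold change -0.42, adjusted p = 0.00442), Btg2, an antiproliferative gene (-0.93), and Ripply3, a transcriptional repressor (-1.33).

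**Figure D1:**
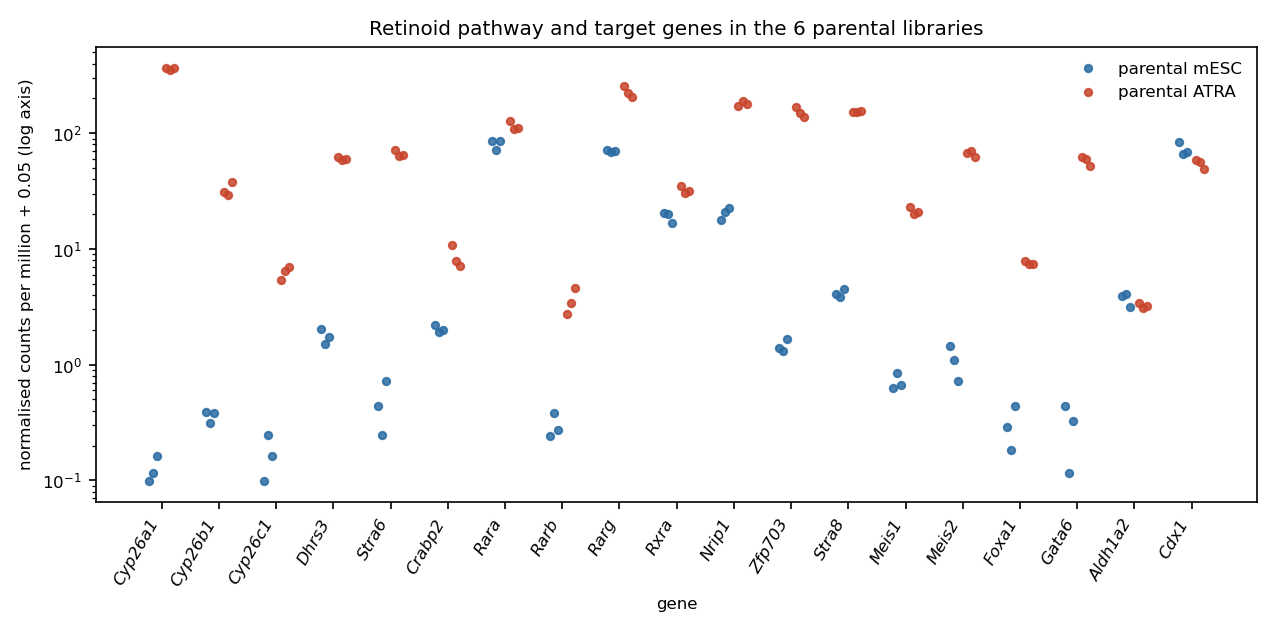
Level of 19 retinoid pathway and target genes in each of the 6 parental libraries, as normalised counts per 1000000 (CPM) plus 0.05 on a log axis. Each point is 1 library, blue for undifferentiated and red for ATRA-treated cells. The Cyp26a1 points lie near the bottom of the axis in mESC and above those of all other genes shown after ATRA, while the points of Aldh1a2 overlap between the states.

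Hox genes of the A and B clusters rose. Hox genes lie in 4 clusters, are numbered by position from the 3′ to the 5′ end, and are repressed by PRC2 in stem cells. Of 39 listed, 33 were tested, 28 were higher and 3 lower, with a median log2 fold change of 5.75. The median was 5.61 when genes without a count in mESC were set at their bound. All 10 tested HoxA genes and all 10 HoxB genes rose, and 9 of the 10 HoxB genes rose beyond 2-fold. A gene that is near 0 in mESC passes the filter only through the libraries in which it is high, so these counts describe the clusters and are not support for their direction. Reads were not stated to be counted by strand, and 13 of the 33 tested Hox genes share exonic bases with another annotated gene. For Hoxb3, 52.9% of exonic bases are shared with Hoxb3os on the opposite strand, and reads of the pair cannot be told apart.

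Hoxb1 had no count in any mESC library and was at 131, 137 and 118 CPM after ATRA. Against the floor of 3 counts over the 3 mESC libraries, this is at least 2309.7-fold higher. Its gene is at chr11:96365752-96368256 (GENCODE M21, GRCm38). Its neighbours Hoxb5 (46.4, 42.8 and 42.1 CPM), Hoxb6 (28.2, 25.7 and 24.4 CPM) and Hoxb2 (20.99, 21.4 and 20.7 CPM) also had no count in mESC, and were at least 792-fold, at least 474-fold and at least 378-fold higher. Hoxb4 was at 0.241, 0.264 and 0.278 CPM in mESC and 59.98, 59.9 and 54.4 CPM after ATRA, and Hoxb8 at 0.0965, 0.264 and 0.0556 and then 63.4, 62.8 and 53.6 CPM. Neither pair of groups overlapped, and the log2 fold changes were 7.77 (SE 0.16) and 8.78 (SE 0.21). Hoxb9, at the 5′ side, was the HoxB gene with most mESC expression and rose from 2.76 ± 0.299 to 38.8 ± 1.12 CPM (3.81). Hoxb13, which lies far from the rest of its cluster, was at 0.383 ± 0.154 and 0.906 ± 0.237 CPM (adjusted p = 0.016004), a call lost without mESC replicate 3 or ATRA replicate 1 (each left out alone, adjusted p = 0.0891 to 0.105).

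In the HoxA cluster, levels after ATRA per kilobase of exon were 40.2 CPM for Hoxa5 and 20.3 CPM for Hoxa4. Hoxa5 was at 0.0482, 0.06598 and 0.167 CPM in mESC and 79.3, 75.5 and 71.7 CPM after ATRA, with no overlap and a log2 fold change of 9.58 (SE 0.21, adjusted p = 3.01e-33). On the same scale Hoxa3 was at 8.21 CPM after ATRA, Hoxa6 at 1.54 CPM, Hoxa9 at 2.37 CPM, Hoxa10 at 6.29 CPM and Hoxa11 at 0.109 CPM. The levels did not follow position throughout, since Hoxa6 was below Hoxa9 and Hoxa10, which lie on its 5′ side. In the HoxB cluster Hoxb1 was highest on the same scale, at 55.3 CPM per kilobase, and Hoxb8 (22.7 CPM) and Hoxb4 (22.6 CPM) came next. Overlapping exons were counted in these lengths as annotated.

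In the HoxC cluster the direction was split. Of 8 tested HoxC genes 3 were higher and 3 lower, with a median of -0.12. Hoxc4 rose from 1.598 ± 0.647 to 8.11 ± 0.784 CPM (log2 fold change 2.30, SE 0.18, adjusted p = 2.69e-15) and Hoxc5 from 0.0702 ± 0.0724 to 2.33 ± 0.124 CPM. Hoxc10, Hoxc12 and Hoxc13, toward the 5′ end, were lower. Hoxc13 was at 7.96, 6.33 and 7.06 CPM in mESC and 0.527, 0.755 and 0.247 CPM after ATRA, every treated library being lower (log2 fold change -3.79, SE 0.29, adjusted p = 2.30e-15). Hoxc12 fell from 141 counts over the mESC libraries to 2 over the ATRA libraries, a ratio of 89.7-fold (95% interval 24.4 to 748). All 5 tested HoxD genes were higher, none of them above 3 CPM after ATRA as a mean. Hoxd1 had 2 counts in mESC and 146 after ATRA, a ratio of 57.4-fold (95% interval 15.6 to 478), and Hoxd13 rose from 0.9303 ± 0.181 to 2.43 ± 0.425 CPM.

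**Figure D2:**
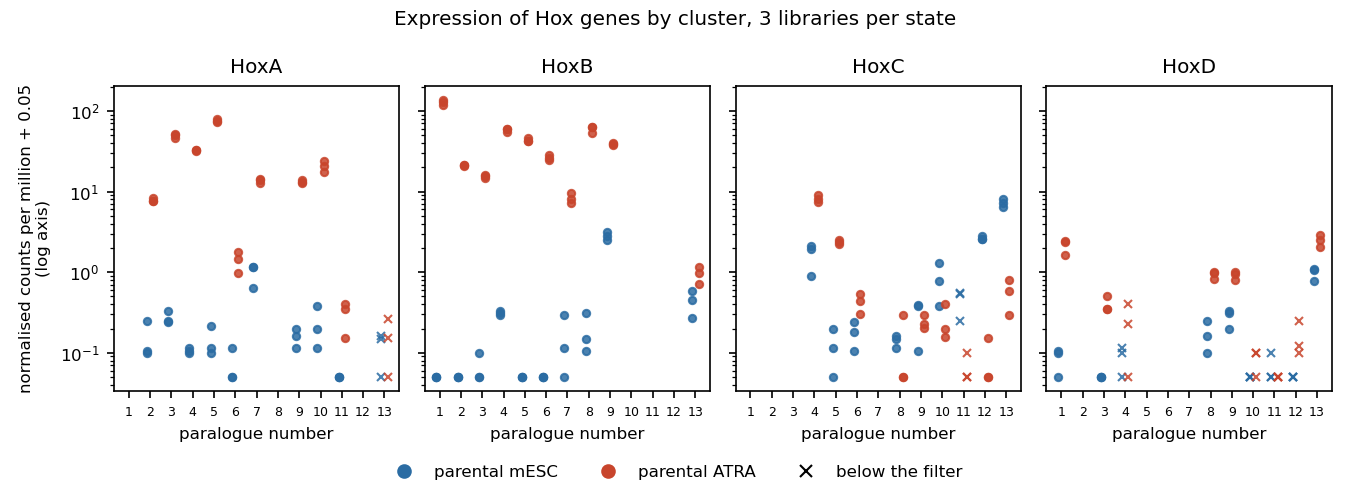
Level of Hox genes by cluster and paralogue number, as normalised counts per 1000000 (CPM) plus 0.05 on a log axis, with 1 point per library (blue undifferentiated, red ATRA-treated, crosses for genes below the filter). For the tested genes shown of HoxA and HoxB the red points lie above the blue ones, and below them for Hoxc12 and Hoxc13.

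Partners of Hox proteins rose as well. MEIS and PBX homeodomain proteins bind DNA together with Hox proteins. Of 9 listed cofactors 6 were higher, 5 of them beyond 2-fold, and 1 was lower. Meis1 was at 0.579, 0.792 and 0.611 CPM in mESC and 22.9, 20.2 and 20.7 CPM after ATRA, and Meis2 at 1.399, 1.06 and 0.667 and then 67.3, 69.6 and 62.8 CPM. For both genes every treated library was above every untreated library, with log2 fold changes of 5.02 (SE 0.21) and 5.97 (SE 0.15). Pbx2 (1.37) and Pbx3 (1.54) also rose. The lower member was Pbx4, at -0.40 on the log2 scale (adjusted p = 0.0113), a call lost with GC correction and without ATRA replicate 1 (adjusted p = 0.136). Without mESC replicate 2 or ATRA replicate 2, 2 cofactors were lower. Of 10 tested genes of the posterior growth zone 4 were higher and 3 lower. Leaving out mESC replicate 1 or ATRA replicate 3 left 2 of them higher. Cdx2, a posterior and trophoblast factor, rose from 0.608 ± 0.242 to 3.56 ± 0.245 CPM (log2 fold change 2.50), and Cdx4 from 1 count to 104 (81.7-fold, 95% interval 14.3 to 3258). Nkx1-2 fell from 5.93 ± 0.2002 to 2.23 ± 0.206 CPM. T, the mesoderm factor Brachyury, fell from 1.34 ± 0.522 to 0.437 ± 0.249 CPM (-1.71, adjusted p = 8.87e-04).

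Genes without a count in the 3 mESC libraries that reached 1 CPM in every ATRA library numbered 15, and 3 genes did the reverse. This is a rule of level and not a test. Beside Hoxb1, Hoxb2, Hoxb5, Hoxb6 and Hoxb3os, the first set held Gsx1, a homeobox factor of the neural tube (6.36, 5.13 and 4.99 CPM, at least 101-fold higher), and Grm6, a glutamate receptor (3.76, 3.52 and 4.74 CPM, at least 71.5-fold higher). Ppbp, shown above for its promoter, was at 2.602, 2.11 and 2.22 CPM. The rest were 5730596B20Rik, Gm27477, 1010001N08Rik, Slc25a21, Prss46, Frmpd4 and Sohlh1. Those that went to 0 were AC141882.2, Gm42793 and Serpina3i, the last a member of a multicopy family whose reads may be split among copies (1.69, 1.25 and 1.0005 CPM in mESC). Without mESC replicate 3 the first set held 24 genes, and without ATRA replicate 3 the second held 6. Csn3, which encodes the milk protein kappa-casein, had 2 counts in mESC and stood at 61.04, 51.5 and 54.2 CPM after ATRA, a ratio of 1516-fold (95% interval 419 to 12519).

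Naive pluripotency genes fell nearly without exception. Of 20 listed and tested, 19 were lower, 17 of them beyond 2-fold, and none was higher, with a median log2 fold change of -3.53. Klf4, a zinc finger factor of the naive network, was at 581, 545 and 508 CPM in mESC and 10.3, 10.4 and 9.87 CPM after ATRA. All treated libraries were far below the untreated, with a log2 fold change of -5.74 (SE 0.086, adjusted p = 3.13e-42). Tfcp2l1, through which LIF and WNT signals maintain naive cells, was at 1326, 1349 and 1294 CPM and then 76.3, 86.1 and 91.9 CPM. Esrrb, an orphan receptor that WNT signalling relieves from repression, was at 1144, 1041 and 1014 CPM and then 87.5, 90.9 and 93.1 CPM. The groups of both genes lay far apart, and the log2 fold changes were -3.97 (SE 0.069) and -3.56 (SE 0.072). Nanog, which guards self-renewal, was at 786, 736 and 737 CPM in mESC and 67.3, 67.2 and 66.2 CPM after ATRA (log2 fold change -3.49, SE 0.073, adjusted p = 9.74e-37). Prdm14, a repressor that guards the naive state, fell from 37.9 ± 2.41 to 0.806 ± 0.512 CPM (-5.57), and Nr5a2, an orphan receptor, from 81.1 ± 1.64 to 4.496 ± 0.697 CPM (-4.19).

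The remaining naive genes covered a wide range. Klf2 (325 ± 34.5 to 57.95 ± 1.91 CPM, log2 fold change -2.49), Klf5 (264 ± 16.5 to 109.95 ± 1.73 CPM, -1.26) and Tbx3 (248 ± 12.4 to 74.96 ± 4.804 CPM, -1.72) kept a part of their expression. Zfp42, the marker Rex1, was at 162, 168 and 151 CPM in mESC and 88.7, 91.2 and 85.1 CPM after ATRA, and its log2 fold change of -0.86 (SE 0.061, adjusted p = 1.59e-16) was not shown to exceed 2-fold. Fgf4, the ligand that drives exit from the naive state, fell from 305 ± 10.4 to 109 ± 6.797 CPM (-1.48). Dppa3 (14.5 ± 0.786 to 1.02 ± 0.232 CPM) and Tcl1 (69.98 ± 8.16 to 4.23 ± 0.359 CPM) fell further. Dppa5a was still at 1461 ± 127 CPM after ATRA, from 1681 ± 142 CPM (-0.20, adjusted p = 0.0331), a call lost with RLE scaling, with DESeq2, with GC correction and without mESC replicates 1 or 3 or ATRA replicates 2 or 3 (each left out alone, adjusted p = 0.0642 to 0.163). The member that was not called was Ooep, at 50.7 ± 1.75 and 48.5 ± 2.99 CPM (adjusted p = 0.539).

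Genes shared by naive and later pluripotent cells split. Of 12 tested 7 were higher and 4 lower. Pou5f1, which encodes OCT4, was at 889, 778 and 723 CPM in mESC and 447, 418 and 397 CPM after ATRA. The groups did not overlap, and the log2 fold change was -0.92 (SE 0.10, adjusted p = 6.71e-11). Sox2, the partner of OCT4, was at 319.7, 309.6 and 281 CPM and then 109.8, 113 and 91.4 CPM (-1.53, SE 0.082, beyond 2-fold). Tdgf1, the Nodal coreceptor Cripto, fell from 1065 ± 28.9 to 326 ± 4.98 CPM, and Sall4 from 239 ± 14.01 to 169 ± 6.95 CPM. The RNA-binding proteins Lin28a (296 ± 16.4 to 426 ± 29.8 CPM) and Lin28b (24.2 ± 1.24 to 53.3 ± 1.37 CPM) rose, as did Utf1 (135 ± 20.6 to 277 ± 32.6 CPM) and Dppa2 (81.8 ± 7.16 to 165 ± 6.57 CPM).

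Of 18 genes of formative and primed epiblast, 15 were higher, 10 of them beyond 2-fold, and 2 were lower, with a median of 1.67. Dnmt3a, a de novo DNA methyltransferase, was at 66.99, 60.8 and 55.1 CPM in mESC and 597, 551 and 505 CPM after ATRA. All ATRA libraries were far above the others, and the log2 fold change was 3.17 (SE 0.085, adjusted p = 1.33e-32). Sox3 rose from 2.42 ± 0.377 to 30.4 ± 2.55 CPM (3.66), Pou3f1, an early neural and epiblast POU factor, from 4.61 ± 0.268 to 29.5 ± 4.47 CPM (2.68), and Lef1 from 3.55 ± 0.4003 to 15.3 ± 1.14 CPM (2.11). Sox4 rose from 24.4 ± 1.99 to 221 ± 21.97 CPM, with 54.6% of its exonic bases shared with an antisense gene. Fgf5, the classic epiblast marker, stayed low, at 0.193, 0.528 and 0.0556 CPM in mESC and 1.76, 1.51 and 1.53 CPM after ATRA (2.697, SE 0.49). The exceptions were Otx2, an anterior epiblast factor that retinoic acid represses in the embryo, which went from 1.93, 1.45 and 1.89 CPM to 0.281, 0.352 and 0.296 CPM, and Foxd3, which fell from 19.4 ± 2.89 to 4.3999 ± 0.774 CPM. The groups of Otx2 did not overlap, and its log2 fold change was -2.50 (SE 0.38, adjusted p = 2.10e-07).

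**Figure D3:**
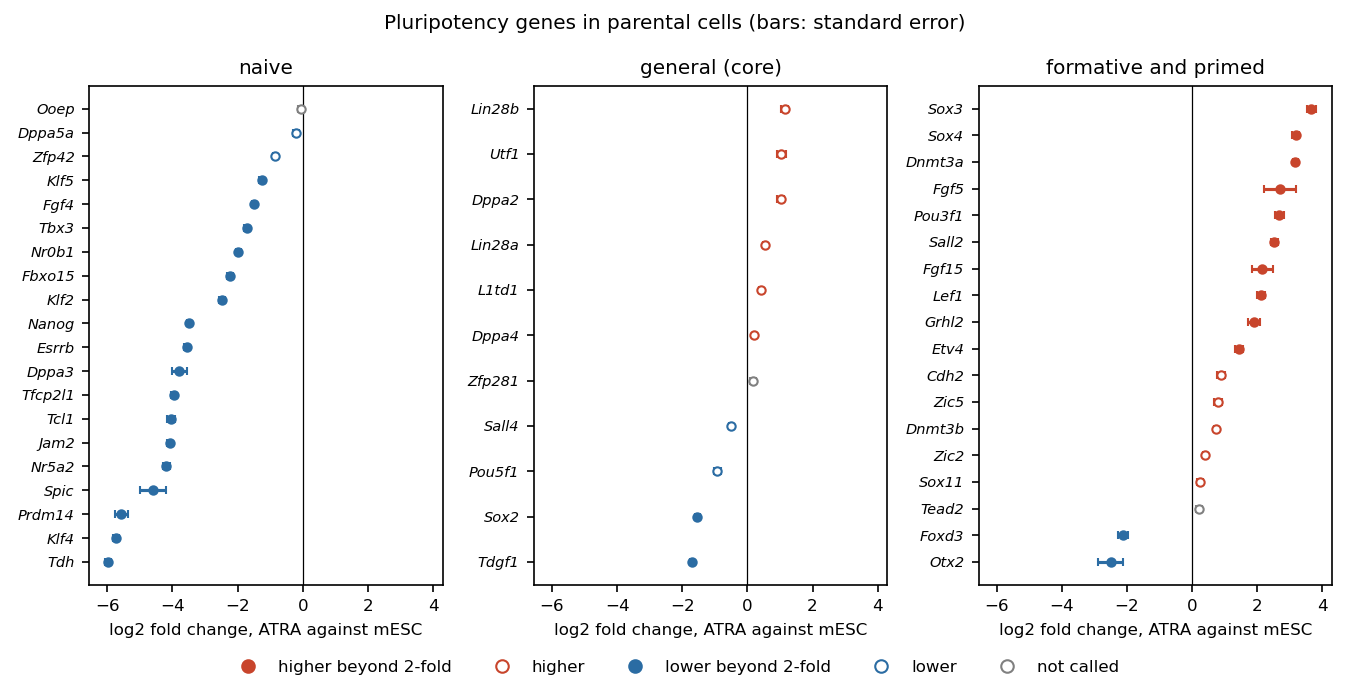
Log2 fold change after ATRA of naive, general (core) and formative or primed pluripotency genes, with bars for the standard error. Filled points are genes shown to change beyond 2-fold and grey points genes that were not called. In the naive panel 19 of 20 genes are lower, while in the formative panel 15 of 18 are higher.

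Readouts of the withdrawn factors changed in both directions. Of 12 LIF and STAT3 target genes 9 were lower and 2 higher, with a median of -1.86, although Klf4 and Tfcp2l1 are also in the naive list. Socs3, the feedback inhibitor of STAT3, was at 166, 138 and 146 CPM in mESC and 7.98, 6.79 and 6.17 CPM after ATRA, every treated library being lower (log2 fold change -4.41, SE 0.13, adjusted p = 3.32e-29). Stat3 itself fell from 182 ± 3.103 to 37.5 ± 1.375 CPM, and the receptor genes Lifr (58.4 ± 2.89 to 15.6 ± 0.148 CPM) and Il6st (89.7 ± 0.928 to 44.6 ± 1.12 CPM) fell too. Pim1, a survival kinase, went the other way, from 110.1, 93.5 and 93.2 CPM to 552, 544 and 462 CPM, with no overlap (2.39, SE 0.079).

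Genes that respond to ERK, the kinase that 2i blocks, were mostly higher. Of 16 tested 11 were higher, all 11 beyond 2-fold, and 4 were lower. Dusp6, a phosphatase that switches ERK off, was at 22.2, 20.5 and 23.4 CPM in mESC and 443, 380.2 and 376 CPM after ATRA (log2 fold change 4.18, SE 0.071, adjusted p = 4.47e-40). All ATRA libraries were far higher. Spry4, another feedback inhibitor, rose from 29.2 ± 1.703 to 129.7 ± 11.1 CPM, and Etv1, an ETS factor downstream of FGF, from 8.77 ± 0.471 to 65.5 ± 3.59 CPM. Myc was at 18.3, 16.96 and 15.6 CPM and then 104, 92.2 and 91.5 CPM (2.50, SE 0.066), without overlap. The exceptions were Fos (3.09 ± 0.466 to 0.738 ± 0.261 CPM), Spry2 (104 ± 9.82 to 64.4 ± 6.72 CPM), Etv5 (486 ± 24.8 to 328 ± 4.59 CPM) and Ier3 (-0.57), which were lower. Spry1 was not called (adjusted p = 0.0627).

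Among 13 tested WNT response and feedback genes, 7 were lower and 3 higher. Sp5, a direct WNT target, was at 8.92, 7.13 and 8.004 CPM in mESC and 0.316, 0.252 and 0.197 CPM after ATRA, with no overlap (log2 fold change -4.91, SE 0.34, adjusted p = 5.82e-17). Notum, an extracellular WNT inhibitor, fell from 26.1 ± 4.18 to 4.42 ± 0.613 CPM, and Axin2, a general readout of the pathway, was not called (43.5 ± 3.72 and 38.3 ± 1.46 CPM, adjusted p = 0.133, and 0.0307 with the replicate number as a block). Dkk1, a secreted inhibitor, rose from 0.337 ± 0.05899 to 2.699 ± 0.2003 CPM. Of 12 tested WNT ligand genes 7 were higher and none lower, and Wnt8a had the highest level per kilobase after ATRA among those that rose beyond 2-fold (0.218 ± 0.232 to 10.04 ± 0.346 CPM, log2 fold change 5.57). Without replicate 1 of either state, 4 of the WNT ligand genes were higher.

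In the Nodal pathway 6 of 12 genes were higher and 6 lower. Lefty1 and Lefty2, secreted inhibitors of Nodal, moved in opposite directions. Lefty1 was at 191, 148 and 151 CPM in mESC and 1171, 1064 and 1005 CPM after ATRA (log2 fold change 2.73, SE 0.16, adjusted p = 1.37e-16), whereas Lefty2 was at 918, 817 and 777 CPM and then 403, 391 and 357 CPM (log2 fold change -1.12, SE 0.073, adjusted p = 6.15e-18). Neither gene overlapped between the states. Nodal itself rose by 0.61 on the log2 scale. Of 12 tested BMP pathway genes 6 were higher and 5 lower, and 3 were lower under several other settings. The Nodal and BMP counts stand beside 28.6% higher and 26.5% lower over all genes tested. Msx1, a homeobox target of BMP, was at 0.338, 0.198 and 0.0556 CPM in mESC and 15.6, 13.1 and 10.1 CPM after ATRA, without overlap (5.96, SE 0.27). Id2 (4.73 ± 0.378 to 25.8 ± 2.57 CPM) and Id3 (19.96 ± 4.098 to 70.1 ± 7.41 CPM), inhibitors of helix-loop-helix factors, rose, and Id4 fell (5.22 ± 1.15 to 1.13 ± 0.394 CPM). Bmp4 fell from 9.38 ± 0.687 to 5.01 ± 0.5502 CPM.

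Lineage genes did not move in 1 direction. Of 23 tested neural genes 10 were higher, 8 of them beyond 2-fold, and 7 lower. Some early neural factors were among those that rose, while Nes, 1 of the 6 neural markers, fell. Nes went from 17.1 ± 1.91 to 12.1 ± 1.45 CPM (log2 fold change -0.50, adjusted p = 0.0048). Pax6, a factor of the neural tube and eye, was at 0.241, 0.06598 and 0.5002 CPM in mESC and 16.6, 16.2 and 15.99 CPM after ATRA (log2 fold change 5.84, SE 0.22, adjusted p = 4.54e-27). Sox1, the earliest neuroectoderm marker, was at 4.82, 4.22 and 4.84 CPM and then 72.7, 64.3 and 53.8 CPM (3.78, SE 0.13). Neither gene overlapped between the states. Olig3 rose from 2 to 293 counts (115-fold, 95% interval 31.6 to 955). Among those that fell, Tubb3 went from 166 ± 16.5 to 53.97 ± 6.42 CPM, Stmn2 from 209 ± 5.05 to 37.3 ± 3.07 CPM, Map2 from 7.46 ± 0.129 to 2.59 ± 0.424 CPM and Ncam1 from 15.2 ± 0.786 to 3.23 ± 0.3498 CPM. Olig2, a motor neuron and oligodendrocyte factor, was at 32.6, 27.9 and 29.2 CPM in mESC and 6.36, 6.84 and 4.94 CPM after ATRA, lower in every treated library. The 6 neural markers summed to 175 to 209 CPM in mESC and 134 to 165 CPM after ATRA.

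Regulators of endoderm were mostly higher. Of 13 tested regulators 10 were higher, 9 of them beyond 2-fold, and 3 lower, with a median of 3.13. Members under 1 CPM in mESC, such as Gata6, Sox17 and Foxa2, entered the test largely through libraries in which they are high. These counts therefore describe the list and are not support for its direction. Of all tested genes between 0.1 and 1 CPM in mESC, 34.2% were higher and 5.27% lower. Gata6, the master factor of primitive endoderm, was at 0.386, 0.06598 and 0.278 CPM in mESC and 61.8, 59.7 and 51.7 CPM after ATRA. It was under 1 CPM in every mESC library and over 50 CPM in every ATRA library (log2 fold change 7.77, SE 0.20, adjusted p = 3.37e-33). Sox17 was at 0.338, 0.06598 and 0.333 CPM and then 15.2, 11.4 and 11.01 CPM (5.57, SE 0.26). Pdgfra, a receptor found on primitive endoderm, rose from 0.685 ± 0.129996 to 15.9 ± 1.44 CPM, Gata4 from 4.02 ± 0.518 to 15.3 ± 0.448 CPM, Sox7 from 1.08 ± 0.183 to 9.81 ± 0.597 CPM and Dab2 from 1.68 ± 0.717 to 10.4 ± 0.356 CPM. Foxa2 had 2 counts in mESC and 105 after ATRA (41.2-fold, 95% interval 11.1 to 345). Foxa3 (-1.15) and Cxcr4 (-1.11) were among the lower. Of 12 tested endoderm products and basement membrane genes, 6 were higher and 6 lower. Cubn, an endocytic receptor of visceral endoderm, was at 0.193, 0.396 and 0.0556 CPM in mESC and 7.59, 8.099 and 8.64 CPM after ATRA, with no overlap. Col4a1 (38.4 ± 3.35 to 90.2 ± 7.65 CPM) and Plat (0.735 ± 0.137 to 5.05 ± 0.422 CPM) rose, whereas Lama1 (131 ± 2.17 to 50.1 ± 1.398 CPM), Nid1 (197 ± 2.01 to 61.2 ± 5.43 CPM), Sparc (463 ± 21.3 to 159 ± 3.92 CPM) and Apoe (1143 ± 148 to 439 ± 36.5 CPM) fell. Afp had 1 count in mESC and 12 after ATRA, and Alb had none in either state.

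Of 20 tested mesoderm and blood genes 13 were higher, 11 of them beyond 2-fold, and 5 lower. Most of those that rose were low after ATRA too. Members under 1 CPM in mESC, such as Lmo2 and Etv2, entered the test largely through libraries in which they are high. These counts too are not support for a direction. Twist1 reached 8.204 ± 1.64 CPM from 1.94 ± 0.495 CPM, Lmo2, a partner of blood stem cell factors, 7.01 ± 1.63 CPM from 0.721 ± 0.289 CPM, and Etv2, a factor of blood and vessel precursors, 5.197 ± 1.71 CPM from 0.755 ± 0.0881 CPM. Tal1, another blood factor, was at 1.06, 0.924 and 1.0005 CPM in mESC and 5.41, 3.27 and 4.05 CPM after ATRA (log2 fold change 2.10, SE 0.24, adjusted p = 4.52e-10), with no overlap. The primitive streak genes T and Eomes (19.6 ± 1.68 to 12.2 ± 1.26 CPM) fell. Gsc was at 0.909 ± 0.215 and 0.295 ± 0.1805 CPM (adjusted p = 0.01203), a call lost without mESC replicate 1 or ATRA replicate 1 (each left out alone, adjusted p = 0.0657 to 0.0855). The 5 mesoderm markers summed to low levels, with means of 3.17 CPM in mESC and 5.15 CPM after ATRA, and Mesp1 was at 0 in mESC. The part of cells of other types in these lineage results was not tested. The 5 trophoblast markers summed to means of 2.02 CPM in mESC and 9.21 CPM after ATRA. Among 13 tested trophoblast and epithelial genes, 6 were higher and 6 lower. Gata3 (0.538 ± 0.0154 to 1.91 ± 0.213 CPM) and Krt18 (12.02 ± 1.18 to 23.5 ± 1.63 CPM) rose, while Tead4 (95.4 ± 3.05 to 8.15 ± 0.482 CPM) and Tfap2c (51.9 ± 2.96 to 21.1 ± 0.541 CPM) fell. Of 11 cadherins and factors of epithelial to mesenchymal transition, 7 were higher and 2 lower. Cdh1, E-cadherin, was at 1039, 1029.6 and 987 CPM in mESC and still at 750.3, 788 and 768 CPM after ATRA (-0.41, adjusted p = 3.59e-06), and Cdh2, N-cadherin, rose from 7.32 ± 0.622 to 13.6 ± 0.823 CPM. Zeb2, a repressor of epithelial genes, was at 0.241, 0.3299 and 0.333 CPM and then 8.47, 10.2 and 8.49 CPM, with no overlap (4.90, SE 0.27). Fn1, fibronectin, fell from 2397 ± 33.98 to 1325 ± 116 CPM.

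Genes of the Polycomb complexes moved in both directions, as did all genes tested (28.6% higher and 26.5% lower). None of 13 PRC2 genes was shown to change beyond 2-fold, and 3 were higher and 5 lower. Eed, the subunit that binds methylated histone H3, was at 239, 256 and 236 CPM in mESC and 141, 139 and 139 CPM after ATRA. Each treated library was lower, and the log2 fold change was -0.80 (SE 0.056, adjusted p = 8.68e-17). Jarid2, which guides PRC2 to its targets, was at 291, 292 and 274 CPM and then 442, 462 and 446 CPM (log2 fold change 0.65, SE 0.047, adjusted p = 2.62e-16), with every treated library higher. Suz12 (338 ± 25.6 and 314 ± 16.1 CPM, adjusted p = 0.531) was not called, and Ezh1 was at -0.24 on the log2 scale (adjusted p = 0.0169), a call lost with GC correction, with no filter and without mESC replicate 1 or ATRA replicate 1 (each left out alone, adjusted p = 0.05197 to 0.133). Without mESC replicate 1, 3 of the PRC2 genes were lower. Of 21 PRC1 genes 8 were higher and 4 lower. Yaf2 (5.67 ± 0.253 to 23.4 ± 1.55 CPM, log2 fold change 2.04) was the 1 PRC1 gene higher beyond 2-fold, Bmi1 rose from 9.62 ± 0.655 to 21.7 ± 1.34 CPM, and Cbx7, the main chromobox subunit of stem cells, was not called (271 ± 12.1 and 249.95 ± 4.16 CPM, adjusted p = 0.343).

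In DNA methylation, 5 of 13 genes were higher and 5 lower, beside 28.6% and 26.5% of all genes tested. The maintenance genes Dnmt1 (576 ± 12.7 to 412 ± 4.33 CPM, log2 fold change -0.48) and Uhrf1 (854 ± 58.7 to 479.7 ± 34.1 CPM, -0.83) fell while Dnmt3a and Dnmt3b (104 ± 6.19 to 172 ± 10.5 CPM, 0.73) rose. Tet1, an oxidase that starts demethylation, was at 541, 617 and 578 CPM in mESC and 293, 369.96 and 355 CPM after ATRA (log2 fold change -0.77, SE 0.12, adjusted p = 6.40e-07), and Tet3 was at 6.704, 5.28 and 8.45 CPM and then 34.1, 40.9 and 33.8 CPM (log2 fold change 2.40, SE 0.12, adjusted p = 4.38e-22). Both genes changed without overlap, in opposite directions. Zfp57, which protects imprints, fell from 576 ± 28.1 to 268 ± 21.3 CPM.

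Of 19 tested germline and meiosis genes 15 were higher, 12 of them beyond 2-fold, and 3 lower, with a median of 1.82. Beside Stra8, the piRNA pathway gene Mael rose from 2.44 ± 0.361 to 13.4 ± 0.953 CPM (log2 fold change 2.46), the RNA helicase Ddx4 from 21.2 ± 1.19 to 51.9 ± 2.48 CPM (1.29), the RNA-binding protein Dazl from 5.398 ± 0.183 to 14.9 ± 1.89 CPM (1.47) and Taf7l from 0.759 ± 0.258 to 10.2 ± 1.01 CPM (3.73). Sycp1, a component of the synaptonemal complex that joins chromosomes in meiosis, was at 3.23, 4.29 and 2.83 CPM in mESC and 18.7, 23.8 and 17.8 CPM after ATRA, with no overlap. Meioc, which sustains meiotic transcripts, was at 4.003, 6.27 and 6.39 CPM and then 27.1, 27.4 and 23.9 CPM (2.25, SE 0.17). The 3 that were lower included factors of early germ cells. Prdm1 (16.4 ± 0.308 to 4.602 ± 0.928 CPM), Kit (158 ± 3.06 to 65.2 ± 3.55 CPM) and Nanos3 (2.38 ± 0.275 to 1.13 ± 0.0829 CPM) fell.

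The 2-cell-like state is one that a small share of cultured stem cells enters at any time. Of 16 listed genes of that state 12 were tested, and these were higher beyond 2-fold. Each was under 1 CPM in mESC as a mean and entered the test largely through libraries in which it is high, so this count describes them and is not support for their direction. Of all tested genes between 0.1 and 1 CPM in mESC, 17.4% were higher beyond 2-fold. Zscan4c, a zinc finger gene of that state, was at 0.772, 0.792 and 0.445 CPM in mESC and 7.88, 7.898 and 9.03 CPM after ATRA, and Zscan4d at 0.241, 0.726 and 0.556 and then 7.98, 8.75 and 9.23 CPM. Neither gene overlapped between the states. Usp17le, a deubiquitinase gene, rose from 0.456 ± 0.175 to 6.87 ± 0.924 CPM, and Tmem92 from 0.159 ± 0.167 to 1.76 ± 0.258 CPM. No tested member exceeded 9 CPM after ATRA as a mean. The Zscan4, Usp17l and Tcstv genes are near-identical copies, how reads on several copies were counted is not given, and their values are uncertain one by one and not independent of each other. Duxf3, the gene Dux that starts this program, was below the filter with 6 counts in mESC and 32 after ATRA.

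Of 28 tested imprinted genes 17 were higher, 10 of them beyond 2-fold, and 4 lower. Peg10, a paternally expressed gene derived from a retrotransposon, was at 55.03, 57.997 and 59.6 CPM in mESC and 1269.5, 1317 and 1360.3 CPM after ATRA. It gained more CPM than any other gene named by the rule, with a log2 fold change of 4.52 (SE 0.076, adjusted p = 3.80e-40). Cdkn1c, which encodes the growth inhibitor p57, was at 4.49, 4.88 and 4.45 CPM and then 71.1, 71.3 and 56.96 CPM (log2 fold change 3.85, SE 0.15, adjusted p = 9.87e-26). Neither gene overlapped between the states. Dlk1 (0.629 ± 0.198 to 11.7 ± 1.9999 CPM), Grb10 (106 ± 5.09 to 408 ± 15.9 CPM), Mest (80.96 ± 1.202 to 234 ± 22.99 CPM), Slc38a4 (115 ± 2.12 to 296 ± 3.44 CPM) and H19 (10.8 ± 0.481 to 28.4 ± 1.82 CPM) rose, and Plagl1 (86.02 ± 7.05 to 13.1 ± 2.04 CPM) and Dio3 (2.08 ± 0.218 to 0.516 ± 0.177 CPM) fell. The maternally expressed noncoding RNAs Meg3 and Rian fell by 0.83 and 0.90 on the log2 scale. Igf2 stayed under 1 CPM (0.487 ± 0.0482 and 0.82004 ± 0.1601 CPM, adjusted p = 0.209), with much of its exonic sequence shared with other annotated genes. In the insulin-like growth factor list 7 of 13 were higher and 2 lower, among them Igfbp3 (5.49 ± 0.786 to 37.2 ± 1.62 CPM), Insr (1.07) and Igf2bp2 (-0.76).

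Of 19 cell cycle genes 4 were higher, 6 lower and 9 not called, beside 28.6% higher and 26.5% lower over all genes tested. Mki67 (326 ± 27.1 and 372 ± 47.5 CPM, adjusted p = 0.0829), Top2a (adjusted p = 0.471), Ccnb1 (adjusted p = 0.885) and Cdk1 (adjusted p = 0.304) were not called. Ccnd2, cyclin D2, was at 1.16, 0.9897 and 1.33 CPM in mESC and 53.02, 53.3 and 46.1 CPM after ATRA, while Ccnd1, cyclin D1, was at 78.7, 79.8 and 79.1 and then 44.7, 40.9 and 39.04 CPM. Both genes changed without overlap, by 5.44 (SE 0.16) and -0.93 (SE 0.062) on the log2 scale. Mycn fell from 64.6 ± 6.697 to 9.38 ± 1.41 CPM (-2.77), against the rise of Myc, and Cdkn1a, the p53 target p21, from 166 ± 11.9 to 74.1 ± 7.22 CPM (-1.16). Of 15 p53 and stress genes 7 were higher and 4 lower, none of them higher beyond 2-fold, with Mdm2 at 0.99 and Trp53 at -0.37.

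Of 16 genes of glucose uptake and glycolysis 12 were lower and 3 higher, with a median of -0.37, against 26.5% of all genes lower. The steps were small for most enzymes, with log2 fold changes of -0.39 for Gapdh, -0.32 for Eno1, -0.42 for Ldha and -0.55 for Aldoa. Ldhb, the other lactate dehydrogenase subunit, was at 179, 157 and 167 CPM in mESC and 38.5, 38.3 and 36.9 CPM after ATRA, lower in every treated library (log2 fold change -2.14, SE 0.081, adjusted p = 1.00e-26). The glucose transporter genes parted. Slc2a1 was at 475, 355 and 387 CPM and then 1200.5, 1054 and 961 CPM (log2 fold change 1.40, SE 0.14, adjusted p = 6.81e-11), and Slc2a3 at 2904, 2779 and 2768 and then 1721, 1751 and 1712 CPM (log2 fold change -0.70, SE 0.078, adjusted p = 1.14e-10). Neither gene overlapped between the states. Tdh, the threonine dehydrogenase on which mouse stem cells depend, was at 623, 570.4 and 571 CPM in mESC and 9.598, 9.31 and 9.18 CPM after ATRA. It had 1 of the 10 largest falls by the naming rule, -5.97 (SE 0.086, adjusted p = 1.16e-42), and Gcat, the next enzyme of that pathway, fell from 20.5 ± 2.701 to 6.69 ± 1.22 CPM. Of 12 threonine, serine and one-carbon genes, 3 were higher and 4 lower, and 6 were higher with GC correction. Over all genes tested, 28.6% were higher and 26.5% lower.

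Several genes named by the size of their change fall in no list. Trpm1, a cation channel, was at 40.5, 39.5 and 38.5 CPM in mESC and 0.141, 0.201 and 0.0987 CPM after ATRA (log2 fold change -8.02, SE 0.24, adjusted p = 5.62e-30). Lrrc34 fell from 57.6 ± 1.05 to 1.08 ± 0.243 CPM and Xaf1 from 9.13 ± 0.723 to 0.179 ± 0.0586 CPM. Srarp went from 96 counts to 2 (61.1-fold, 95% interval 16.5 to 512), and Cd180, a Toll-like receptor relative, from 68 counts to 0, at least 28.8-fold lower. By amount, genes shown to change beyond 2-fold that gained most beside Peg10, Lefty1 and Slc2a1 were Txnrd1, a thioredoxin reductase (465 ± 4.84 to 1339.6 ± 18.2 CPM), Etnk1, an ethanolamine kinase (529 ± 47.4 to 1315 ± 156 CPM), the receptor Epha2 (378 ± 11.5 to 1120.1 ± 51.9 CPM) and Mcl1, a survival factor (454 ± 8.602 to 1100.2 ± 34.6 CPM). Mdk, a growth factor known to be induced by retinoic acid, was at 133, 114 and 118 CPM in mESC and 804, 694 and 602 CPM after ATRA, with no overlap. Among genes shown to change beyond 2-fold, those that lost most beside naive genes and Tdgf1 were Spp1, osteopontin (823 ± 4.11 to 32.1 ± 0.259 CPM), Ckb, a creatine kinase (703 ± 63.4 to 53.3 ± 4.58 CPM), and Mybl2, a cell cycle factor (988 ± 71.8 to 352 ± 7.83 CPM).

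Direction went with the level before treatment. Of the 2363 genes over 100 CPM in mESC, 45% were lower and 15.4% higher, and of the 3830 genes between 0.1 and 1 CPM, 5.27% were lower and 34.2% higher. Beyond 2-fold, the same 2 sets had 5.46% lower and 0.762% higher, and 1.8% lower and 17.4% higher. Between them, genes of 10 to 100 CPM had 5.21% lower and 2.35% higher beyond 2-fold, and genes of 1 to 10 CPM 5.4% and 9.93%. Low genes entered the test only where some library of the series reached the filter, which favours rises among them. Of the 623 genes under 0.1 CPM, which have almost no room to fall, 83.8% were higher and 0% lower. The same mESC libraries give the level and the baseline of the fold change, so the 2 are tied in part in advance. By gene type, 31.5% of 14507 protein-coding genes were higher and 29.9% lower, against 7.26% and 8.21% of 1047 processed pseudogenes.

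**Figure D4:**
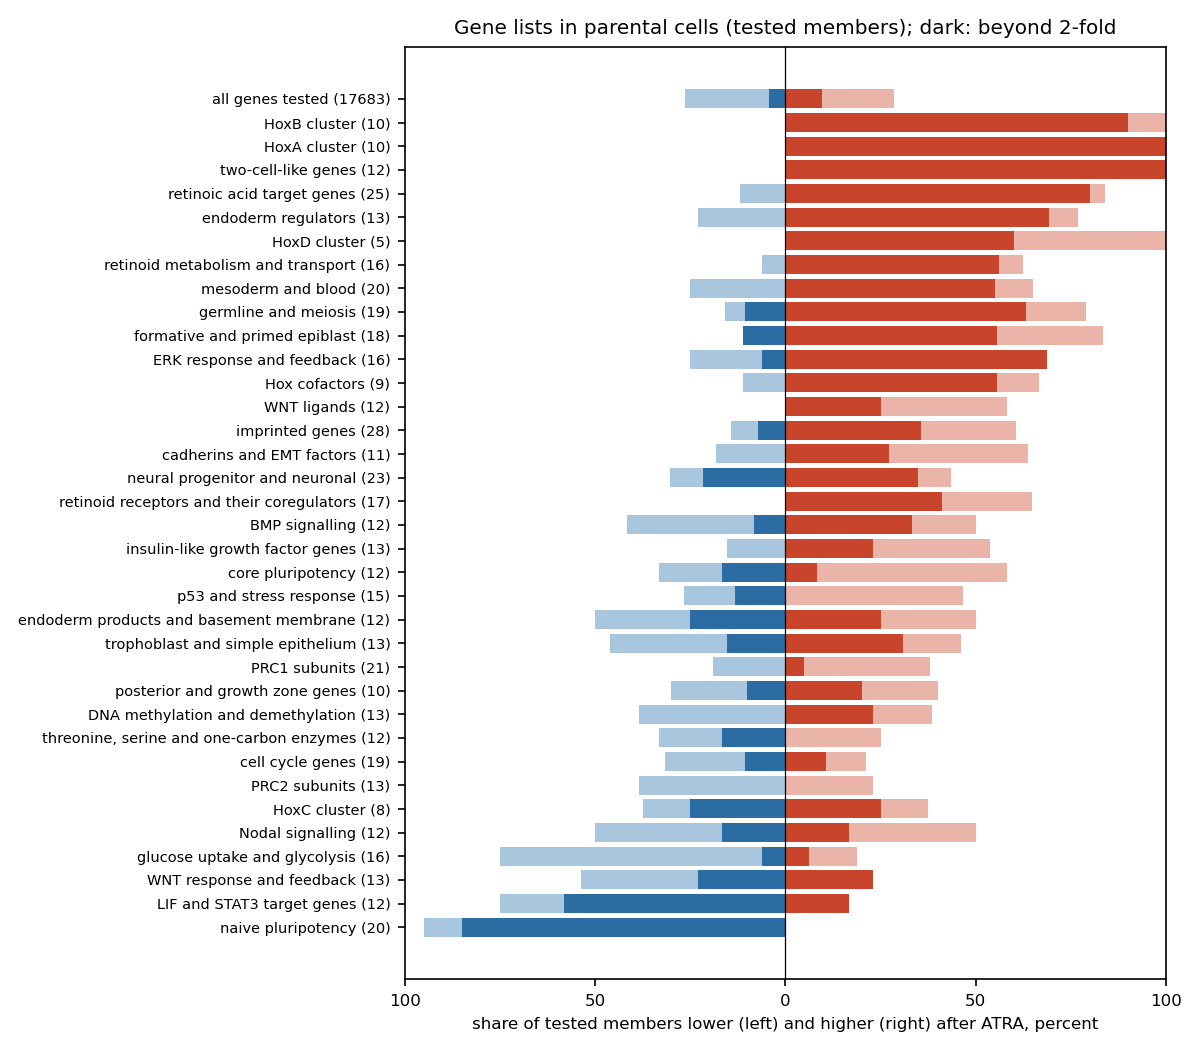
Share of the tested members of each gene list that were lower (left, blue) and higher (right, red) after ATRA, in percent, with the number tested in brackets. Dark bars are genes shown to change beyond 2-fold, and the top row gives all 17683 genes, 28.6% higher and 26.5% lower. Of the naive genes 19 of 20 are on the left, and all tested HoxA, HoxB, HoxD and 2-cell-like genes are on the right.

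The response was then compared with that of the WT and het lines, with an interaction term per gene. It is the log2 fold change in parental cells minus that in the other line, so that a value above 0 means a larger rise or a smaller fall in parental cells. The difference from the WT line passed the threshold for 1023 genes (5.79%), 538 above 0 (3.04%) and 485 below 0 (2.74%). That from the het line passed for 129 genes (0.73%), 72 above 0 (0.407%) and 57 below 0 (0.322%). Both comparisons use the same parental libraries, and neither count says how the lines differ from each other. With a GC correction the count was 1797 against the WT line and 273 against the het line. Against the WT line 345 genes were above 0 without parental mESC replicate 3 and 355 without WT ATRA replicate 3. Against the het line the count was 80 without parental ATRA replicate 3, 77 without het mESC replicate 2, 84 without het mESC replicate 3 and 73 without het ATRA replicate 1. Ezh2 was at 462, 439 and 417 CPM in the mESC libraries of the WT line and 285, 281 and 276 CPM in those of the het line, and after ATRA at 358, 360.5 and 368 and 239, 243 and 233 CPM.

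Several naive genes fell less in parental cells. Of 20 tested, the difference from the WT line was above 0 for 13 and below 0 for 1, and that from the het line was above 0 for 7 and below 0 for none. The median log2 fold change was -3.53 in the parental, -4.00 in the WT and -3.82 in the het line. Jam2, a junctional adhesion molecule, was at 12.8, 15.04 and 13.5 CPM after ATRA in parental cells, at 3.82, 4.51 and 4.03 CPM in the WT line and at 4.78, 5.65 and 5.69 CPM in the het line. Before treatment the same lines were at 233, 235 and 234 CPM, at 223, 222 and 215 CPM and at 189, 195 and 199 CPM. The parental libraries kept the most after ATRA, and the differences were 1.64 (SE 0.13, adjusted p = 2.96e-12) from WT and 1.10 (SE 0.13, adjusted p = 4.24e-07) from het. Esrrb was at 87.5, 90.9 and 93.1 CPM after ATRA in parental cells, at 47.9, 49.9 and 47.8 CPM in WT and 57.8, 60.99 and 61.5 CPM in het cells. All parental values were above all others, and the differences in response were 0.92 (SE 0.094, adjusted p = 1.21e-09) and 0.68 (SE 0.094, adjusted p = 1.91e-05). For Tfcp2l1 the differences were 0.94 (SE 0.089, adjusted p = 1.80e-10) and 0.50 (SE 0.088, adjusted p = 7.61e-04), for Tdh 0.78 (SE 0.12, adjusted p = 5.17e-06) and 0.76 (SE 0.12, adjusted p = 6.15e-05), and for Klf2 1.18 (SE 0.13, adjusted p = 5.21e-09) and 0.55 (SE 0.13, adjusted p = 0.0177). The Klf2 call against het was lost without parental mESC replicate 2, parental ATRA replicate 1, het mESC replicate 2 or het ATRA replicate 1 (each left out alone, adjusted p = 0.0529 to 0.118). Nanog (0.83, SE 0.10, adjusted p = 1.98e-08) and Prdm14 (2.47, SE 0.54, adjusted p = 0.00196) differed from WT, while their differences from het missed the threshold (adjusted p = 0.0871 and 0.564). Klf4 differed from both lines (0.44, SE 0.12, adjusted p = 0.0116, and 0.63, SE 0.11, adjusted p = 0.00103), a call lost against WT without parental mESC replicate 3 or WT ATRA replicate 3 (each left out alone, adjusted p = 0.0579 to 0.0597). The 1 gene below 0 against WT was Tbx3 (-0.39, SE 0.10, adjusted p = 0.00944). The count against WT was 12 or 13, and that against het 6 to 9, under every alternative run, GC correction included.

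**Figure D5:**
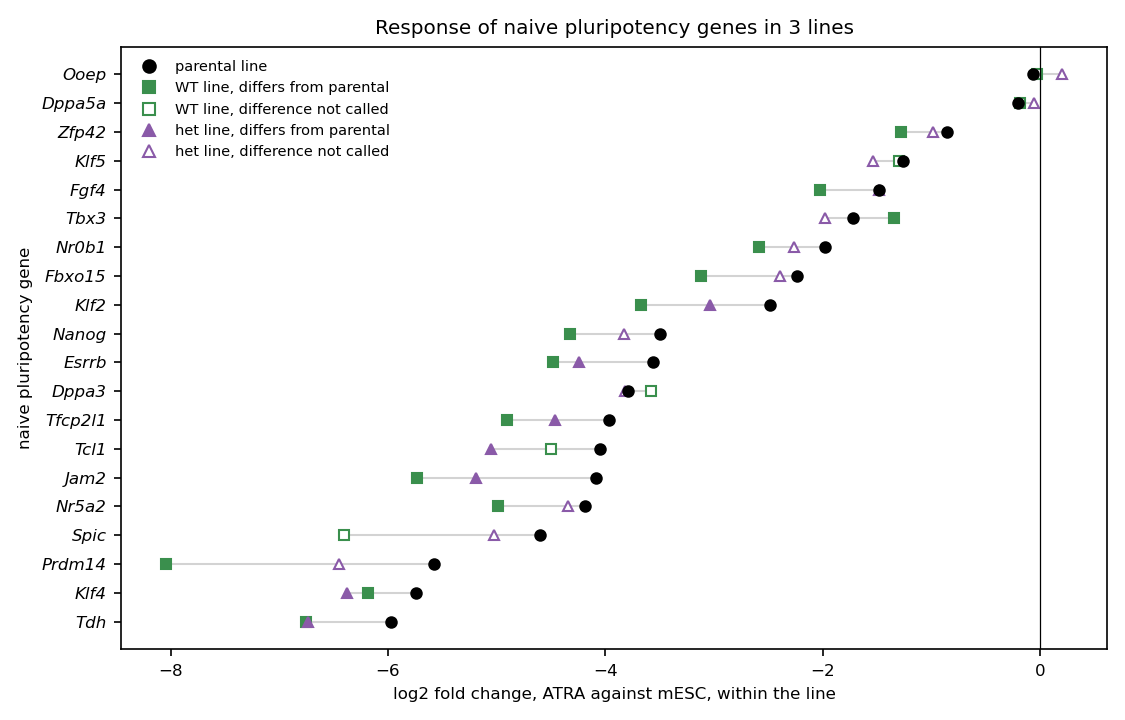
Log2 fold change after ATRA of 20 naive pluripotency genes in the parental (black circles), WT (green squares) and het (purple triangles) lines, with filled symbols where the response differs from the parental one. Black circles lie to the right of the green squares for the 13 genes that fell less in parental cells, Jam2 and Esrrb among them.

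Some rises were smaller in parental cells. Of 25 retinoic acid target genes 8 had a difference below 0 from WT and 1 above 0, Cdx1. Among the 8, the calls of Crabp2, Nrip1 and Tgm2 were each lost when certain single libraries were left out. From het, Zfp703 was below 0 and Cdx1 above 0 (0.79, SE 0.18, adjusted p = 0.0186). The Cdx1 call was lost against WT without parental mESC replicate 2 or WT ATRA replicate 3 (each left out alone, adjusted p = 0.05103 to 0.0522), and against het without parental mESC replicates 2 or 3, parental ATRA replicate 1 or het mESC replicate 1 (each left out alone, adjusted p = 0.0546 to 0.0692). Zfp703 was at 167, 149.6 and 137 CPM after ATRA in parental cells, at 307, 311 and 284 CPM in WT and 264, 264 and 244 CPM in het cells. Before treatment it was at 1.35, 1.25 and 1.61 CPM, at 1.42, 0.906 and 1.27 CPM and at 0.797, 0.985 and 0.781 CPM. The parental libraries were the lowest after ATRA, and the differences in response were -1.23 (SE 0.27, adjusted p = 0.00217) and -1.49 (SE 0.28, adjusted p = 0.00211). Differences were not called for the feedback genes Cyp26a1 (adjusted p = 0.8803 and 0.99998) and Rarb (adjusted p = 0.915 and 0.99998). Rarg, in contrast, rose by 1.69 in parental and 0.77 in WT cells, a difference of 0.92 (SE 0.16, adjusted p = 1.57e-04). Of 13 endoderm regulators 5 were below 0 against WT, Gata4, Hhex, Pdgfra and Dab2 among them, and 1 against het (Gata4). The Pdgfra call was lost without parental mESC replicate 3 or WT mESC replicate 3 (each left out alone, adjusted p = 0.0581 to 0.0614). Gata4 was at 15.8, 14.9 and 15.1 CPM after ATRA in parental, 23.7, 27.2 and 22.5 CPM in WT and 16.8, 14.2 and 14.04 CPM in het cells. Before treatment it was at 3.47, 4.09 and 4.502 CPM, at 1.52, 1.14 and 1.99 CPM and at 1.75, 1.53 and 1.47 CPM. Parental cells started highest and after ATRA overlapped het cells, below WT cells, and the differences were -2.06 (SE 0.21, adjusted p = 1.69e-09) and -1.32 (SE 0.21, adjusted p = 2.04e-04). Gata6, the leading member of that list in parental cells, did not differ from either line at the threshold (adjusted p = 0.431 and 0.956). Of 33 Hox genes 3 differed from WT (Hoxa3, Hoxb9 and Hoxc4) and 2 from het (Hoxb4 and Hoxc4), all below 0. The shares over all genes tested were 5.79% and 0.73%, and these small Hox counts are not read as a trait of the clusters. The Hoxa3 call was lost with DESeq2 and with no filter. It was also lost without parental mESC replicate 3 or WT mESC replicates 1 or 3 (each left out alone, adjusted p = 0.0668 to 0.154). Hoxc4 differed from het by -1.20 (SE 0.29, adjusted p = 0.0266), a call lost without parental mESC replicates 1 or 3, parental ATRA replicate 3, het mESC replicates 1 or 2 or het ATRA replicates 1 or 3 (each left out alone, adjusted p = 0.0655 to 0.195). Hoxb4 passed against het (adjusted p = 0.00211) with no count in het mESC libraries, so that no size is given. It was at 0.241, 0.264 and 0.278 CPM in parental mESC, and after ATRA at 59.98, 59.9 and 54.4 CPM in parental and 61.6, 55.99 and 53.1 CPM in het cells, which overlapped.

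Some ERK feedback and stress genes had differences above 0. Spry4 was at 141, 129.7 and 119 CPM after ATRA in parental cells, 152, 159 and 159 CPM in WT and 137, 122 and 113 CPM in het cells. Before treatment it was at 31.1, 28.5 and 27.9 CPM, at 95.8, 96.01 and 100.2 CPM and at 50.1, 46.9 and 48.1 CPM. Parental cells started lowest and after ATRA overlapped het cells, below WT cells, with differences of 1.46 (SE 0.10, adjusted p = 4.91e-15) and 0.79 (SE 0.10, adjusted p = 1.32e-06). Myc differed by 0.99 (SE 0.088, adjusted p = 3.60e-11) and 0.49 (SE 0.090, adjusted p = 0.00153), and Etv4 from WT alone at the threshold (1.32, SE 0.16, adjusted p = 6.40e-08, against adjusted p = 0.166 for het). Dusp4 rose less in parental than in WT cells (-1.19, SE 0.19, adjusted p = 2.63e-05). Among 15 p53 and stress genes 6 were above 0 and 2 below 0 against WT, among them Chac1, a glutathione-degrading enzyme of the stress response (1.98, SE 0.25, adjusted p = 2.97e-07), Ddit3 (0.97, SE 0.17, adjusted p = 1.04e-04) and Trib3 (0.90, SE 0.19, adjusted p = 0.00131). Against het 1 was above 0, Gdf15 (0.93, SE 0.22, adjusted p = 0.0227), a call lost without parental mESC replicates 2 or 3, parental ATRA replicate 2, het mESC replicates 2 or 3 or het ATRA replicate 1 (each left out alone, adjusted p = 0.0578 to 0.231). Peg10 rose less in parental cells than in WT (-0.39, SE 0.095, adjusted p = 0.00605) and het cells (-0.63, SE 0.10, adjusted p = 7.11e-05), and H19 likewise (-2.03, SE 0.24, adjusted p = 2.67e-08, and -1.01, SE 0.23, adjusted p = 0.0183). The H19 call against het was lost without parental ATRA replicate 3, het mESC replicate 2 or het ATRA replicate 1 (each left out alone, adjusted p = 0.0548 to 0.118). None of the 12 tested 2-cell-like genes and none of the 13 PRC2 genes differed from either line at the threshold. Over all genes tested, 5.79% differed from WT and 0.73% from het. The median rise of the 2-cell-like genes was 3.65 in the parental, 5.15 in the WT and 4.06 in the het line. At their low counts, the lack of a call does not show that the responses were alike.

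Of the 6 differences named by size in each direction, those with the lowest adjusted p whose values are not given above are described, a choice made after their values were seen. Foxd1 (3.38, SE 0.52, adjusted p = 1.08e-05) and Inhbb (2.95, SE 0.43, adjusted p = 3.49e-06) were above 0 against WT, with Inhbb falling from 6.46 to 0.968 CPM in parental cells. Below 0 stood Thsd4 (-2.86, SE 0.61, adjusted p = 0.001502) and Tal1, the blood factor (-2.72, SE 0.38, adjusted p = 1.64e-06). The other 4 named below 0 had larger fitted differences, from -2.95 to -5.97, and each had a group mean of at most 0.0328 CPM, at which the fitted value depends on the prior count. Foxd1, Inhbb, Thsd4 and Tal1 missed the threshold against het (adjusted p = 0.794, 0.0527, 0.99998 and 0.395). Against het, Mapt, the gene of the protein tau, was above 0 (1.27, SE 0.18, adjusted p = 4.38e-05). It was the smallest of the 6 named above 0, which reached 3.12. Below 0 against het stood Fgfr2 (-1.92, SE 0.35, adjusted p = 0.00108) and Pcdh1 (-1.63, SE 0.30, adjusted p = 0.00141). Of the 6 named there, Hoxb4 is given no size, having no count in het mESC libraries, and the others ran from -1.49 to -2.38. Mapt, Fgfr2 and Pcdh1 passed against WT as well, in the same directions (adjusted p = 1.33e-06, 7.05e-05 and 3.27e-05). Fgfr2 rose from 1.11, 0.858 and 0.945 to 22.3, 18.3 and 18.5 CPM in parental cells and from 0.266, 0.296 and 0.477 to 27.7, 28.1 and 25.6 CPM in het cells, so that the treated groups did not overlap.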

How the data were processed

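RNA was purified with a NucleoSpin kit and poly(A) RNA was made into libraries from random hexamers, per the labels' protocols. The authors deposited 1 table of raw counts per gene. The submitters' processing notes name the build mm10 and the tools STAR 2.7.3a, cutadapt 3.2, DESeq2 1.38.3 and featureCounts 1.6.4. For annotation, strand setting and multi-mapped reads, nothing is given in the sources used here. Of the count columns, 48 matched a sample's labels and 6 did not and were not used. Genes passing edgeR's filterByExpr were fitted with TMM scaling and a robust quasi-likelihood model (edgeR 4.0.16, R 4.3.3) over the 48 libraries as 16 group means (32 residual degrees of freedom), and glmTreat tested changes beyond 2-fold. The script was tested on simulated data. Adjusted p is Benjamini-Hochberg over all genes tested. Members and lists were chosen with earlier results of these data known. Genes were named by rule: beyond 2-fold, at least 1 CPM in a group, libraries not overlapping, not a predicted model, then the 10 with the largest log2 fold change and the 8 with the largest CPM difference in each direction, and 6 per direction for each difference between lines. List members could also be named, and some genes that these rules name are not reported here. A gene at 0 counts in a state was set against a floor of 3 counts over the group, and one at 1 to 3 counts is given as a ratio with its exact 95% interval. Intervals and floors cover counting error only. Alternatives were RLE scaling, DESeq2 1.42.0, no filter, only the contrast's libraries, a GC offset, the replicate number as a block, and leaving out each library.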

Additional observations from a re-analysis of the deposited data

Results flagged for a closer look

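Each of the 43 differences of response given above by size (25 against the WT line and 18 against the het line) passed the interaction test between lines, and its value is the log2 fold change in parental cells minus that in the other line. Above 0 against the WT line the differences were Foxd1 3.38, Inhbb 2.95, Prdm14 2.47, Chac1 1.98, Jam2 1.64, Spry4 1.46, Etv4 1.32, Klf2 1.18, Myc 0.99, Ddit3 0.97, Tfcp2l1 0.94, Esrrb 0.92, Rarg 0.92, Trib3 0.90, Nanog 0.83, Tdh 0.78 and Klf4 0.44. Below 0 against the WT line they were Thsd4 -2.86, Tal1 -2.72, Gata4 -2.06, H19 -2.03, Zfp703 -1.23, Dusp4 -1.19, Peg10 -0.39 and Tbx3 -0.39. Above 0 against the het line they were Mapt 1.27, Jam2 1.10, Gdf15 0.93, Spry4 0.79, Cdx1 0.79, Tdh 0.76, Esrrb 0.68, Klf4 0.63, Klf2 0.55, Tfcp2l1 0.50 and Myc 0.49, and below 0 Fgfr2 -1.92, Pcdh1 -1.63, Zfp703 -1.49, Gata4 -1.32, Hoxc4 -1.20, H19 -1.01 and Peg10 -0.63. The same parental libraries enter every one of these values.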

How the results depend on the processing

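Over the alternatives run, 3178 of 3223 recomputed responses of named genes in parental cells kept their direction and side of the threshold, 28 lost the call and 17 gained it, and none reversed. Of 1957 recomputed differences between lines, all from those called in the reported fit, 1839 kept theirs, 118 lost the call and none reversed. Of 910 recomputed list counts 890 stayed within 1.5 times. The same-numbered mESC and ATRA libraries of the parental line had correlations of deviations of 0.165, 0.0689 and 0.0753 over all genes tested, and of 0.233, 0.1105 and 0.105 over the 15706 that pass the filter in these 6 libraries. Every library correlated best with its own number. This held in both sets of genes. The labels do not say whether the numbers pair the samples, and the fit without the block is the one reported. For responses of named genes in parental cells, the block changed no call other than those of Ret and Axin2, which it gained. It lost none of the recomputed differences between lines. Differences not called in the reported fit were not recomputed gene by gene, so gains among them are not listed. Naive genes above 0 against het went from 7 to 8 with the block. With the replicate number as a block 10167 genes changed, 2525 of them beyond 2-fold, with 1349 differences from the WT line and 179 from the het line. DESeq2 called 1804 genes beyond 2-fold. Differences between lines moved most. With a GC offset there were 1797 against WT (819 above 0, 978 below) and 273 against het (157 above, 116 below). With the GC offset and the block there were 2091 (936 above, 1155 below) and 323 (186 above, 137 below). With only the contrast's libraries 197 genes differed from het (93 below), and DESeq2 gave 87 below. Leaving out 1 library in turn gave 8926 to 9363 changed genes and 2243 to 2359 beyond 2-fold. It gave 738 to 954 differences from WT (345 to 511 above, 326 to 507 below) and 73 to 107 from het (38 to 63 above, 31 to 47 below). Genes switched on numbered 16 to 24 and those switched off 3 to 6. The cause of these shifts was not tested. Genes near 1 count per library carry wide counting intervals, and 3 libraries a group limit the precision of every fold change.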

Other observations

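Among chromosomes, the X chromosome had 37.3% of its 619 tested genes higher after ATRA in parental cells and 20.7% lower, with a median log2 fold change of 0.18. Chromosome 17 had 20.1% of its 902 tested genes higher and 32.5% lower, with a median of -0.11. Of 24 tested mitochondrial genes 6 were lower and none higher, with a median of -0.36, and the mitochondrial share of counts was 1.62% to 1.85% in mESC and 1.42% to 1.63% after ATRA. Among 6 gene types, antisense transcripts alone had more falls than rises beyond 2-fold, 7.11% lower and 5.28% higher of 492 tested.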
